A study of Homo sapiens with 12 samples.

Results

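The Sprouty and SPRED genes encode inhibitors of signalling from receptor tyrosine kinases through RAS, RAF, MEK and ERK. Of 6 such genes considered, 5 (SPRY2, SPRY4, SPRED1, SPRED2 and SPRED3) had a row among the 20771 genes of the count table, while SPRY1 was not analysed here. They were chosen by name and function with the 48 h changes of these same libraries already known. The 48 h comparisons of these genes are therefore a description, with effect sizes and intervals but no p-values, and their counts support nothing.

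Sprouty proteins are made in response to growth factor signalling and then restrain it, which makes them classical negative feedback regulators. They act at or near the receptor and its adaptors, where they bind GRB2 and the ubiquitin ligase CBL, and they hold back activation of RAS and RAF. SPRED proteins share the cysteine-rich Sprouty domain, carry an EVH1 domain at their other end, and bring the RAS-inactivating protein neurofibromin, the product of NF1, to the membrane. Ewing sarcoma, a tumor of bone and soft tissue driven by the EWS-FLI1 fusion, is well known to depend on growth factor input through the IGF1 receptor.

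The libraries came from the Ewing sarcoma cell lines EW8 and TC71, cultured in DMEM with 10% FBS and present here as EW8-RRM1-KO and TC71-RRM1-KO. In all 4 groups the endogenous RRM1 gene, which encodes the large subunit of ribonucleotide reductase, was disrupted by Cas9, and the cells carried a lentiviral, doxycycline-inducible and codon-optimized RRM1 transgene. The knockout lines were derived by single-cell cloning, and how many clones the libraries represent is not given in the sources used here. Libraries labelled 0 h came from cells kept in doxycycline and those labelled 48 h from cells without it for 48 h, with 3 libraries per line and label (12 in all).

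Total counts ranged from 18468485 to 35698991 per library, and the common biological coefficient of variation was 4.17%. All 8 Ewing sarcoma markers examined were detected, with group means of 244 to 334 CPM (counts scaled to library depth) for CD99 and 0.504 to 2.51 CPM for CCK. PTPRC, a blood cell marker, had 5 to 9 summed counts per group and EPCAM, an epithelial marker, 11 to 124. These are counts and not CPM, so they cannot be set against the CPM of CCK. EPCAM was lower in EW8 than in TC71 at 0 h, with a log2 fold change of -2.57 (edgeR adjusted p = 2.9e-06). PECAM1 and MYOD1 were not analysed here. The RRM1 row had 9.37, 9.51 and 9.67 CPM in EW8 at 0 h against 63.9, 72.6 and 74.1 CPM at 48 h, and 15.7, 15.5 and 17.3 CPM in TC71 at 0 h against 25.7, 26.4 and 24.1 CPM at 48 h. The RRM1 row was thus higher in the libraries labelled 48 h. The endogenous gene is edited in all 4 groups, and how reads of the codon-optimized transgene were assigned is not stated, so this row does not check the labels in either direction. Every direction below follows the labels.

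The proximal promoters of the 4 genes with the higher counts are shown because these genes were all higher at 48 h in both lines. The sequences are RefSeq promoter windows on GRCh38.p14, and only the bases before the start site that lie outside annotated exons are printed, in the direction of transcription. The SPRY2 stretch is chr13:80341127-80341376 on the minus strand, the SPRY4 stretch chr5:142324418-142324497 on the minus strand, the SPRED1 stretch chr15:38252586-38252835 on the plus strand and the SPRED2 stretch chr2:65432638-65432849 on the minus strand. Capitals mark matches to the motifs described after them.
SPRY2: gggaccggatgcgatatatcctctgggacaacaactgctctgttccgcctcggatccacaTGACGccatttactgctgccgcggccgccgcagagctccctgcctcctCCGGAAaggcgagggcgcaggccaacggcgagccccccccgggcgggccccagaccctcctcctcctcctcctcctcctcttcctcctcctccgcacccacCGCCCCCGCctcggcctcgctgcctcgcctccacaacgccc
SPRY4: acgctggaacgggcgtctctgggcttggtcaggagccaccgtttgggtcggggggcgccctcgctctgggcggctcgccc
SPRED1: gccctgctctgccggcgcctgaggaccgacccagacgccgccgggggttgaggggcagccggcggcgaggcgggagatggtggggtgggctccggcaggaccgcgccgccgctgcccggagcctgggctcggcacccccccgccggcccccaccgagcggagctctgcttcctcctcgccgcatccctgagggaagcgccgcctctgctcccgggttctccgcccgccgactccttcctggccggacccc
SPRED2: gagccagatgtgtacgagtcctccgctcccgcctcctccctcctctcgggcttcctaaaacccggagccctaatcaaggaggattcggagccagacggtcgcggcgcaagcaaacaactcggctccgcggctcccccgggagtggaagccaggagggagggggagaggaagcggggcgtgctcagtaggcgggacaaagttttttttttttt
The motifs searched on both strands were AP-1 (TGANTCA), the cyclic AMP response element CRE (TGACGTCA), the CRE half-site (TGACG), ETS (CCGGAA), EGR (GCGGGGGCG) and the CArG box bound by SRF. A CRE contains the half-site. All 6 gene names matched RefSeq entries, with 11 windows of 300 bases (250 before the start site and 50 after). The printed SPRY2 stretch held a CRE half-site, an ETS match and an EGR match on the opposite strand, while the printed SPRY4, SPRED1 and SPRED2 stretches held none. The SPRY4 window carried a CRE half-site from base -68 to base -64, in the part annotated as exon of another transcript. The window of the printed SPRED2 stretch carried a CRE half-site after the start site, on the opposite strand, from base 31 to base 35. AP-1 matches lay in the window of a second SPRED2 start site, from base -6 to base 1 and from base 35 to base 41, and in 1 SPRED3 window, from base -60 to base -54. Among the 11 windows, AP-1 was found in 2, the CRE in 0, its half-site in 3, ETS in 2, EGR in 2 and the CArG box in 0. Among all 35116 windows, the shares were 7.71%, 1.85%, 24.6%, 17.2%, 5.07% and 1.29%, respectively.

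SPRY4, a Sprouty that is a usual transcriptional target of ERK signalling, had the largest change of the group. Its level in EW8 was 8.63, 6.76 and 8.21 CPM in the libraries labelled 0 h and 91.6, 87.8 and 91.6 CPM in those labelled 48 h. The groups were far apart, with a log2 fold change of 3.50 ± 0.08 (SE, 95% interval 3.35 to 3.66, n = 3 per group), or 11.3-fold. In TC71, SPRY4 was close to absent at 0 h, with 17, 7 and 16 counts (0.633, 0.343 and 0.662 CPM), and reached 209, 223 and 314 counts at 48 h (7.98, 8.32 and 9.71 CPM). This was a log2 fold change of 3.95 ± 0.17 (95% interval 3.60 to 4.29), or 15.4-fold. TC71 at 48 h thus reached only the level that EW8 had at 0 h, and the 2 groups of libraries overlapped. Of all 16515 genes tested, 1.08% had a larger log2 fold change than SPRY4 in EW8 and 0.133% in TC71. In bulk RNA, more cells expressing a gene and more RNA per cell cannot be told apart.

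SPRY2, the best studied Sprouty and a binding partner of CBL, was measured at 5.56, 4.64 and 4.67 CPM in EW8 at 0 h and at 15.9, 16.0 and 17.0 CPM at 48 h. No 48 h library came near the 0 h range, and the log2 fold change was 1.72 ± 0.10 (SE, 95% interval 1.52 to 1.92, 3.30-fold). In TC71 it was measured at 6.44, 5.98 and 6.41 CPM at 0 h and at 11.3, 13.1 and 13.5 CPM at 48 h. The groups were again apart, with a log2 fold change of 1.01 ± 0.10 (95% interval 0.82 to 1.20). The fold of 2.02 in TC71 sat at the threshold of 2, and it was under the threshold without EW8 0 h replicate 1 or 3 (log2 0.995 for both), TC71 0 h replicate 2 (0.98) or TC71 48 h replicate 2 (0.98) or 3 (0.96).

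**Figure D1:**
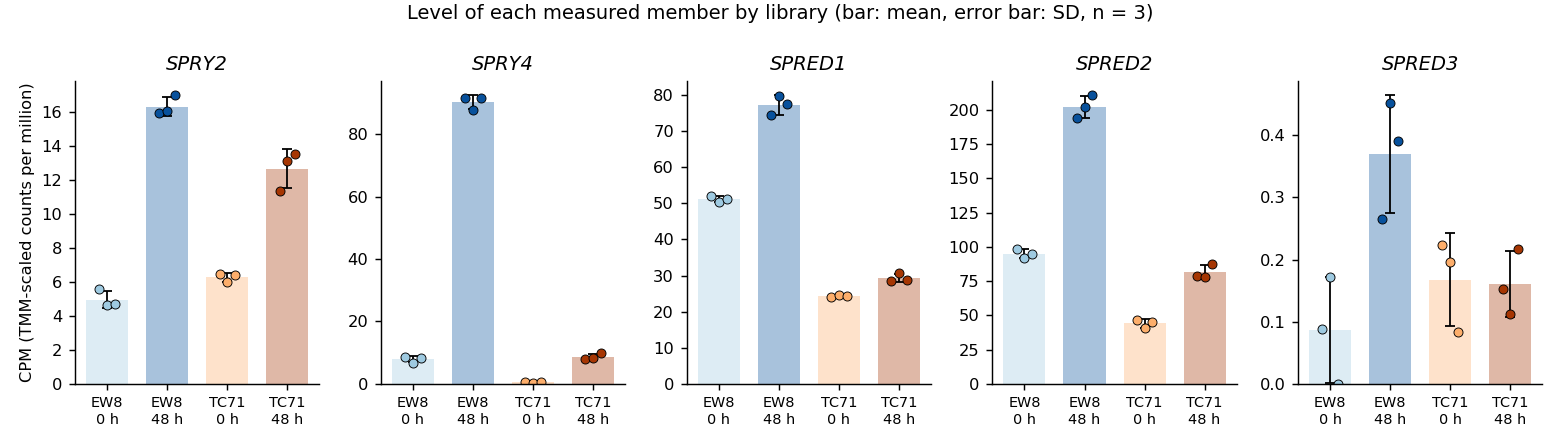
Level of each measured Sprouty and SPRED gene in CPM (counts scaled to depth with TMM factors) in the 4 groups, with 1 point per library, bars for group means and error bars for the SD (n = 3). The 48 h points of SPRY2, SPRY4, SPRED1 and SPRED2 lie above all 0 h points of the same line, and SPRY4 in TC71 at 48 h (7.98 to 9.71 CPM) lies at the EW8 0 h level.

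SPRED2, a SPRED protein expressed in many tissues, was the most abundant of these transcripts. In EW8 it went from 98.6, 92.1 and 94.5 CPM to 194, 202 and 211 CPM, a log2 fold change of 1.09 ± 0.05 (SE, 95% interval 0.99 to 1.19, 2.13-fold). In TC71 it went from 46.3, 40.7 and 45.1 CPM to 79.0, 78.3 and 87.1 CPM, a log2 fold change of 0.89 ± 0.05 (95% interval 0.78 to 0.995, 1.85-fold). The libraries of the labels did not overlap in either line, and TC71 at 48 h stayed below EW8 at 0 h. SPRED1, whose germline loss causes the neurofibromatosis-like Legius syndrome, had the smallest change of the 4 tested genes. It was measured at 52.0, 50.4 and 51.2 CPM in EW8 at 0 h and at 74.5, 79.8 and 77.5 CPM at 48 h. The log2 fold change was 0.59 ± 0.05 (95% interval 0.49 to 0.70, 1.51-fold). In TC71 the values were 24.1, 24.6 and 24.3 CPM at 0 h and 28.5, 30.7 and 28.8 CPM at 48 h, for a log2 fold change of 0.27 ± 0.06 (95% interval 0.15 to 0.39, 1.21-fold). Both SPRED1 changes were below a fold of 2, although no libraries of the labels overlapped.

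SPRED3, the SPRED known mainly from brain, was barely detected and did not pass the filter on low counts. It had 2, 3 and 0 counts in EW8 at 0 h and 5, 9 and 8 counts at 48 h. The ratio of the pooled counts, scaled to depth, was 5.43 with a 95% interval of 2.01 to 18.4 that covers counting error only. The TC71 libraries held 6, 4 and 2 counts at 0 h against 4, 3 and 7 at 48 h, with a ratio of 0.976 (0.419 to 2.31). A change of SPRED3 in TC71 was not detectable at this depth.

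Of the 5 measured genes, 4 had enough counts to be tested. Calls required a fold above 2 together with a Benjamini-Hochberg adjusted p below 0.05 in the edgeR quasi-likelihood test, adjusted over all 16515 genes. In EW8, 3 of the 4 (SPRY4, SPRY2 and SPRED2) were called higher, where 13.9% of all genes tested were called higher and 3.35% lower. In TC71, 2 of the 4 (SPRY4 and SPRY2) were called higher, where 3.26% of all genes were called higher and 0.854% lower. With the adjusted p alone, all 4 were higher in each line, against 37.0% of all genes in EW8 and 22.9% in TC71. The libraries of the labels did not overlap for these 4 genes, as for 71.1% of all genes in EW8 and 49.6% in TC71. The median log2 fold change of the 4 genes was 1.41 in EW8 and 0.95 in TC71, beside 0.03 and -0.0013 for all genes tested. None of these counts is independent of how the genes were chosen.

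**Figure D2:**
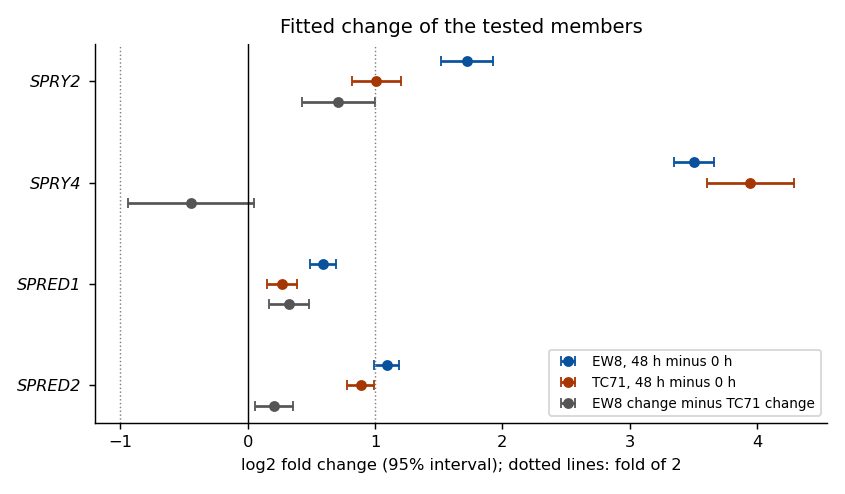
Fitted log2 fold change (x axis) of the 4 tested genes (y axis) from 0 h to 48 h in EW8 and in TC71, and the EW8 change minus the TC71 change, with 95% intervals and dotted lines at a fold of 2. The interval of the difference lies above 0 for SPRY2, SPRED1 and SPRED2, and spans 0 for SPRY4 (-0.94 to 0.05).

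The change in EW8 was then set against the change in TC71 with an interaction term. This contrast is built from the same 48 h changes, so its adjusted p gives the size of the difference against the spread between libraries and is not independent of the choice of genes. SPRY2 changed more in EW8, by 0.71 ± 0.14 on the log2 scale (SE, 95% interval 0.42 to 0.998, edgeR adjusted p = 7.81e-05). SPRED1 also changed more in EW8, by 0.32 ± 0.08 (0.17 to 0.48, edgeR adjusted p = 0.000581). For SPRED2 the difference was 0.20 ± 0.07 (0.06 to 0.35, edgeR adjusted p = 0.0205). The SPRED2 difference was small, and it missed an adjusted p of 0.05 when any 1 of 7 libraries was left out, with adjusted p from 0.0516 without TC71 48 h replicate 2 to 0.106 without TC71 0 h replicate 1. The others were EW8 0 h replicates 2 and 3 (0.105 and 0.0672), EW8 48 h replicate 3 (0.0679), TC71 0 h replicate 3 (0.0598) and TC71 48 h replicate 1 (0.054). For SPRY4 the difference was in the other direction, at -0.44 ± 0.24 (-0.94 to 0.05, edgeR adjusted p = 0.125), and it passed 0.05 only without EW8 0 h replicate 2 (-0.56, adjusted p = 0.0439). Without TC71 0 h replicate 2, the SPRY4 library with the fewest counts, the difference was -0.24 (edgeR adjusted p = 0.464). The interval for SPRY4 holds values from a fold change almost 2-fold larger in TC71 to a change slightly larger in EW8. With the fold threshold, 0 of the 4 differences were called by edgeR and 0 by DESeq2, against 7.28% of all genes with a larger change in EW8. By adjusted p alone, 3 of 4 were larger in EW8 (also 3 at an unadjusted p below 0.05), against 25.7% of all genes. A further 22.4% of all genes went the other way.

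At 0 h the lines already differed in these genes. SPRY4 was higher in EW8 than in TC71 by a log2 fold change of 3.82 ± 0.18 (SE, 95% interval 3.46 to 4.18, edgeR adjusted p = 1.23e-19), or 14.1-fold. SPRED2 was higher in EW8 by 1.11 ± 0.05 (edgeR adjusted p = 6.21e-19) and SPRED1 by 1.07 ± 0.05 (edgeR adjusted p = 2.71e-18). SPRY2 went the other way and was lower in EW8, at -0.35 ± 0.11 (95% interval -0.58 to -0.12, edgeR adjusted p = 0.00752), which became 0.0617 without EW8 0 h replicate 3. In all, 3 genes were called higher in EW8 at 0 h (against 4.77% of all genes), and by adjusted p alone 3 were higher, against 32.8%, and 1 was lower, against 32.9%. The libraries of the 2 lines did not overlap for any of the 4 genes, as for 68.3% of all genes tested. The median of the 4 genes was 1.09 on the log2 scale, beside -0.01 for all genes. With total counts alone as the scaling, SPRED1 and SPRED2 fell just under a fold of 2 (log2 0.94 and 0.97) and 1 gene was called. With upper-quartile factors SPRED1 alone lost its call (log2 0.994) and 2 genes were called.

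Levels were compared between genes as RPKM, here the CPM divided by the length of the merged exons in kilobases. In EW8 at 0 h the order was SPRED2 (17.3 ± 0.60 RPKM, SD, n = 3), SPRED1 (6.60 ± 0.11), SPRY2 (1.54 ± 0.16), SPRY4 (1.20 ± 0.15) and SPRED3 (0.0148 ± 0.015). At 48 h in EW8, SPRY4 (13.8 ± 0.33 RPKM) had passed both SPRED1 (9.97 ± 0.34) and SPRY2 (5.08 ± 0.18), below SPRED2 (36.8 ± 1.5). Neighbouring genes in these orders did not overlap in any library. In TC71 at 0 h the order was SPRED2 (7.995 ± 0.54 RPKM), SPRED1 (3.14 ± 0.03), SPRY2 (1.95 ± 0.08), SPRY4 (0.0833 ± 0.027) and SPRED3 (0.0286 ± 0.013). At 48 h in TC71, SPRED2 (14.8 ± 0.90 RPKM) was followed by SPRY2 (3.94 ± 0.36) and SPRED1 (3.79 ± 0.15), whose libraries overlapped, and then by SPRY4 (1.32 ± 0.14) and SPRED3 (0.0273 ± 0.0090).

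**Figure D3:**
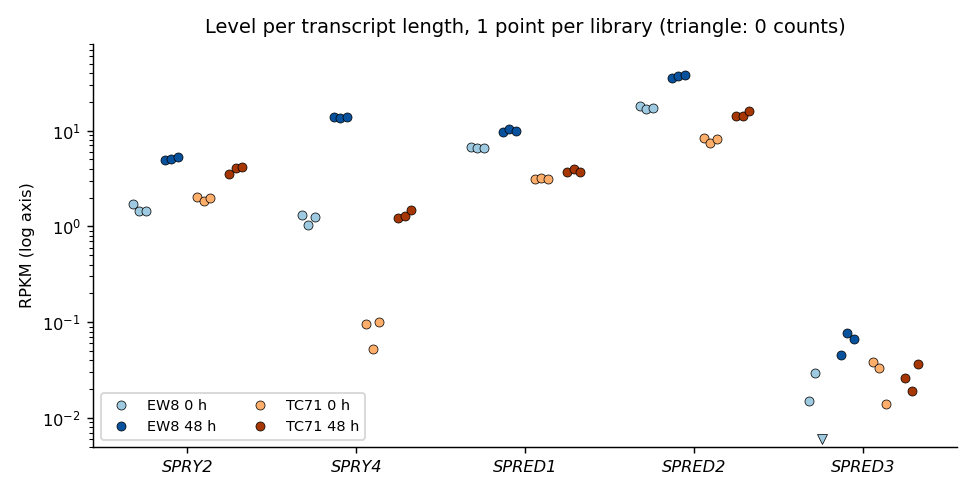
Level per length (RPKM, log axis) of the 5 measured genes, with 1 point per library, colors for the 4 groups and a triangle for a library with 0 counts. SPRED2 is the highest in every group (7.38 to 38.3 RPKM) and SPRED3 the lowest (at most 0.0769 RPKM).

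Summed over the 5 genes, the level was 26.6 ± 0.99 RPKM (SD) in EW8 at 0 h and 65.7 ± 1.9 RPKM at 48 h, and 13.2 ± 0.62 and 23.9 ± 1.3 RPKM in TC71. The Sprouty genes SPRY2 and SPRY4 together went from 2.74 to 18.9 RPKM in EW8 and from 2.04 to 5.26 RPKM in TC71. The SPRED genes went from 23.9 to 46.8 RPKM in EW8 and from 11.2 to 18.6 RPKM in TC71. SPRY4 made up 4.50% of the summed level in EW8 at 0 h and 21% at 48 h, and 0.626% and 5.53% in TC71. The SPRED1 share was lower at 48 h in both lines, at 24.8% and 15.2% in EW8 and at 23.8% and 15.9% in TC71, although its own level was higher. SPRED2 held the largest share in every group, from 56.0% in EW8 at 48 h to 64.8% in EW8 at 0 h.

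The other genes of the pathway were taken from hand-written lists, of which 97 genes were tested. In EW8, 25 of the 97 were called higher and 0 lower, beside the 13.9% and 3.35% given for all genes, although 25 were lower at an unadjusted p below 0.05 and DESeq2 called 1 lower. In TC71, 8 were called higher and 1 lower, beside 3.26% and 0.854%. Among genes whose RNA reports ERK output, 6 of 8 were called higher in EW8 and 1 of 8 in TC71, with medians of 1.58 and 0.67 on the log2 scale. By adjusted p alone, 8 were higher in EW8, beside 37.0% of all genes. In TC71, 5 were higher and 1 lower, beside 22.9% and 19.2% of all genes. These output genes are well known as ERK-dependent and were listed with results of these data in view. The adjusted p-values of these and the other list genes set a change against the spread between libraries. They are not independent of how the genes were listed.

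DUSP6, the cytoplasmic phosphatase that inactivates ERK, was called in both lines. It averaged 29.8 ± 2.9 CPM (SD, n = 3) at 0 h and 298 ± 8.8 CPM at 48 h in EW8, a log2 fold change of 3.31 ± 0.06 (SE, edgeR adjusted p = 1.55e-26). In TC71 it averaged 19.1 ± 1.4 and 114 ± 8.6 CPM, a log2 fold change of 2.57 ± 0.07 (edgeR adjusted p = 5.78e-22). DUSP4, a nuclear phosphatase of the same family, was higher in EW8 by 2.14 (edgeR adjusted p = 3.15e-10), but in TC71 it had only 9 counts over the 3 libraries at 0 h and 20 at 48 h (log2 0.87, adjusted p = 0.201). The ETS factor ETV5 was higher by 1.65 in EW8 (edgeR adjusted p = 6.48e-25) and by 0.68 in TC71 (5.07e-14), under the fold threshold. The related factor ETV4 had few counts, with 17 and 40 over the EW8 libraries (log2 1.51, edgeR adjusted p = 0.00378) and 4 and 1 over the TC71 libraries. The receptor EPHA2 was higher by 1.99 in EW8 (edgeR adjusted p = 2e-25) and by 0.65 in TC71 (1.19e-12), and PHLDA1, a pleckstrin-domain protein, by 1.39 (2e-12) and 0.81 (0.000175). EPHA4 was higher by 0.89 in EW8 (edgeR adjusted p = 1.79e-10) and lower in TC71, at -0.38 (0.00485). CCND1, the cyclin of early G1, differed little, at 0.11 in EW8 (edgeR adjusted p = 0.00332) and 0.18 in TC71 (2.66e-05).

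**Figure D4:**
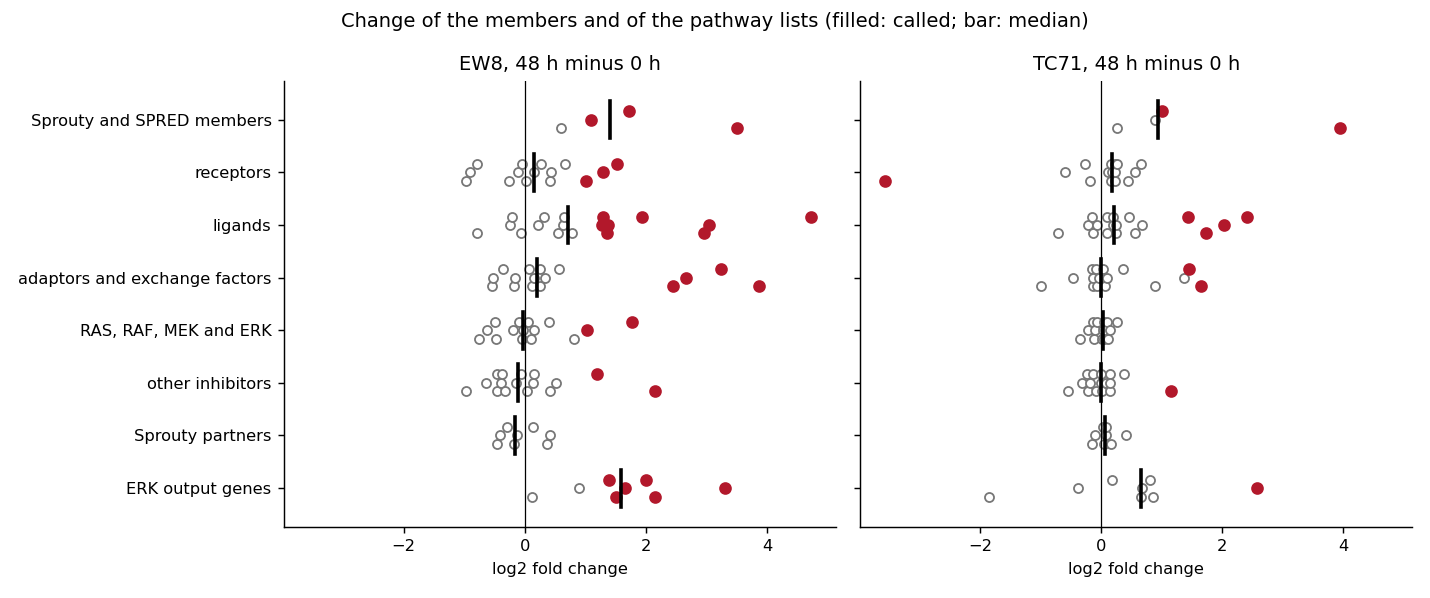
Log2 fold change from 0 h to 48 h (x axis) in EW8 and TC71 for the 4 tested Sprouty and SPRED genes and the genes of each pathway list (y axis), with filled points for called genes and a black bar for each median. The medians of the Sprouty and SPRED genes (1.41 and 0.95) and of the ERK output genes (1.58 and 0.67) lie to the right of those of the other lists.

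Among growth factor ligands, which start the signal, 8 of 18 tested were called higher in EW8, where 13.9% of all genes were. In TC71, 4 of 18 were called higher, beside 3.26% of all genes. By adjusted p alone, 14 were higher and 1 lower in EW8, beside 37.0% and 31.6% of all genes. By the same measure 11 were higher and 1 lower in TC71, beside 22.9% and 19.2%. GDNF, the ligand of RET with its coreceptor, was higher by 4.73 ± 0.17 in EW8 (SE, edgeR adjusted p = 1.16e-22) and by 2.41 ± 0.18 in TC71 (3.13e-13). HBEGF, a ligand of the EGF receptor, was higher by 2.96 and 1.73 (edgeR adjusted p = 6.22e-13 and 8.63e-07), and KITLG, the ligand of KIT, by 3.04 and 1.44 (4.88e-13 and 4.49e-06). FGF12, an FGF homologous factor that stays inside the cell, was higher by 2.03 in TC71 (edgeR adjusted p = 1.02e-06) and by 0.65 in EW8 (0.0145). Among 15 receptors, 3 were called higher in EW8, beside 13.9% of all genes, and by adjusted p alone 7 were higher and 4 lower, with a median of 0.15. They included PDGFRB, a PDGF receptor (1.29, edgeR adjusted p = 1.02e-18), and RET (1.02, 1.47e-09), which was named after its values were seen. In TC71, PDGFRB was higher by 0.65 (edgeR adjusted p = 5.61e-13), under the fold threshold. In TC71, 0 receptors were called higher by edgeR or DESeq2, with 7 higher at an unadjusted p below 0.05. Only RET was called lower there, with 4 counts over the 3 libraries at 0 h and 0 at 48 h, and DESeq2 did not call it. IGF1R, the IGF1 receptor, named after its values were seen, was lower by adjusted p in both lines, at -0.91 in EW8 (edgeR adjusted p = 3.3e-18) and -0.26 in TC71 (1.83e-05). FGFR4, an FGF receptor, was also lower, at -0.97 in EW8 (edgeR adjusted p = 1.5e-11) and -0.59 in TC71 (8.7e-06).

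Among 16 adaptors and exchange factors, 4 were called higher in EW8 and 2 in TC71, beside 13.9% and 3.26% of all genes. By adjusted p alone, 8 were higher and 3 lower in EW8, beside 37.0% and 31.6% of all genes. In TC71, 3 were higher and 3 lower, beside 22.9% and 19.2%. GAB2, a docking protein that recruits SHP2, was higher by 2.45 and 1.65 (edgeR adjusted p = 1.91e-18 and 5.79e-11). RASGRF1, a RAS activator with 12 counts over the EW8 0 h libraries, was higher by 3.24 and 1.45 (edgeR adjusted p = 2.34e-09 and 2.13e-06). Of the 15 genes of the RAS, RAF, MEK and ERK core, 2 were called higher in EW8, beside 13.9% of all genes. By adjusted p alone, 5 were higher and 6 lower there, beside 37.0% and 31.6%. In TC71, edgeR and DESeq2 both called 0, while at an unadjusted p below 0.05 edgeR had 3 higher and 3 lower. BRAF was higher by 1.03 in EW8 (edgeR adjusted p = 3.72e-18) and 0.27 in TC71 (0.000315), and the scaffold KSR1 had 0.81 in EW8 (7.23e-10) and 0.12 in TC71 (0.288).

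Among 17 other inhibitors of the pathway, 2 were called higher in EW8, where 13.9% of all genes were, and 1 in TC71, where 3.26% were. By adjusted p alone, 7 of the 17 were lower and 6 higher in EW8, where 31.6% of all genes were lower and 37.0% higher. In TC71, 5 were lower and 2 higher, beside 19.2% and 22.9% of all genes. The medians of these inhibitors were -0.06 and 0.00 on the log2 scale. ERRFI1, the feedback inhibitor of the EGF receptor, was higher by 2.14 in EW8 and 1.16 in TC71 (edgeR adjusted p = 3.95e-28 and 1.68e-19). CBLB, a ubiquitin ligase of the CBL family, was higher by 1.19 in EW8 (edgeR adjusted p = 6.26e-18), with 0.15 in TC71 (0.078). NF1, the partner of the SPRED proteins, was slightly lower, at -0.15 in EW8 (edgeR adjusted p = 0.00987) and -0.31 in TC71 (1.7e-05). Among 8 proteins that bind or process Sprouty, 0 were called in either line by edgeR or DESeq2, while at an unadjusted p below 0.05 edgeR had 3 higher and 4 lower in EW8, and 2 higher and 2 lower in TC71. NEDD4, a ubiquitin ligase for Sprouty, was higher by 0.42 and 0.16 (edgeR adjusted p = 6.15e-09 and 0.0155), caveolin gene CAV1 by 0.13 and 0.41 (0.00278 and 3.61e-11), and PPP2R1A, a scaffold subunit of phosphatase PP2A, had -0.46 and -0.10 (1.68e-11 and 0.0513).

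The genes most like each Sprouty or SPRED gene over the 12 libraries were ranked by Pearson correlation of log2 CPM among 13509 genes with a mean of at least 1 CPM. The points share 4 group means, so these values describe the pattern and carry no test. For SPRY2 the most alike were EGR3, a zinc finger transcription factor, and HHIP, a Hedgehog-binding protein (r = 0.993 for both). For SPRY4 they were PIK3CG, a catalytic subunit of PI3 kinase, and RGS16, a regulator of G protein signalling (0.994 for both). For SPRED1 they were EMP3, a membrane protein, and AHR, the aryl hydrocarbon receptor (0.997 for both). For SPRED2 they were BUD13, a splicing factor, and SCG2, a secretogranin (0.996 for both). For SPRED3, with few counts, FAM86B1 was among the 2 most alike (0.912). Among the members themselves, SPRY4 and SPRED2 were the most alike (0.991) and SPRY2 and SPRED1 the least (0.368).

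By GENCODE 44 on hg38, SPRY2 (ENSG00000136158) lies on the minus strand of chromosome 13 from 80335976 to 80341126 and SPRY4 (ENSG00000187678) on the minus strand of chromosome 5 from 142310427 to 142326455. SPRED1 (ENSG00000166068) lies on the plus strand of chromosome 15 from 38252836 to 38357249, SPRED2 (ENSG00000198369) on the minus strand of chromosome 2 from 65310851 to 65432637 and SPRED3 (ENSG00000188766) on the plus strand of chromosome 19 from 38388421 to 38399587. SPRY4 shares 1247 bases of its span, but no exon base, with the noncoding gene SPRY4-AS1 on the opposite strand. SPRY4-AS1 had 1, 3 and 8 counts in EW8 at 0 h and 9, 11 and 16 at 48 h, and 0, 0 and 0 counts in TC71 at 0 h against 0, 3 and 4 at 48 h. Its counts were under those of SPRY4 in every library. The library kit kept strand, but the strand setting of the counting is not given in the sources used here, so a small contribution of antisense reads to either gene was not tested. SPRED2 shares part of its span, but no exon base, with an annotated noncoding gene that was not analysed here, as were 2 small RNA genes inside SPRY4. SPRY3, the other Sprouty gene in the table, was added after its values were seen. It was higher in EW8 by 0.89 ± 0.18 (SE, edgeR adjusted p = 4.25e-05), with 0.10 ± 0.16 in TC71 (edgeR adjusted p = 0.637).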

How the data were processed

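RNA from 12 libraries of 2 Ewing sarcoma lines was sequenced from stranded poly(A) libraries. Per the paper's methods, the authors checked reads with FastQC and aligned them to hg38 with STAR. The deposited table holds raw counts per gene, as whole numbers without normalization. The counter and its annotation are not given in the sources used here. No gene's counts summed to less than 21 over the libraries. Total counts per library were 18468485 to 35698991, which limits precision only for low genes such as SPRED3 and SPRY4 in TC71 at 0 h.

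Groups came from the sample labels (EW8 and TC71, 0 h and 48 h, 3 libraries each). The quasi-likelihood test of edgeR 4.0.16 (R 4.3.3) was run on these counts with a robust fit, TMM factors and filterByExpr (minimum count 10, minimum total 15), which kept 16515 genes. All 4 groups shared 1 estimate of the spread. Within each line, libraries labelled 48 h were compared with those labelled 0 h, the changes of the lines were compared with each other, and EW8 was compared with TC71 at 0 h. P-values were adjusted by Benjamini-Hochberg across the tested genes, and calls required an adjusted p below 0.05 with a change of more than 2-fold. CPM values are TMM-scaled. RPKM values use merged exon lengths of GENCODE 44, which may differ from the lengths the authors counted on. Intervals are at 95%. Nothing in the labels says that the libraries came from separate cultures, so p-values measure the spread between these libraries, which may be technical. Same-numbered libraries did not deviate together (correlations -0.42 to 0.01 over 11081 genes), so the numbers were not treated as pairs.

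The Sprouty and SPRED genes, the pathway lists (receptors, ligands, adaptors and exchange factors, RAS to ERK core, other inhibitors, Sprouty partners and ERK output genes) and the markers were chosen with earlier results of these data known. Named genes were all Sprouty and SPRED genes, RRM1, all ERK output genes, the genes of the other lists called the same way in both lines, the 2 per list and line with the largest change at an adjusted p below 0.05 and at least 20 counts on average in the higher group, the 2 genes most like each Sprouty or SPRED gene, and annotated genes that overlap them. A few genes named by this rule are left out of the text. Promoter sequences were from RefSeq (GRCh38.p14).

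Alternatives were other scalings, the DESeq2 1.42.0 Wald test, other filters and thresholds, each line fitted alone, a replicate block, a fit that was not robust, and leaving out each library. The procedure was tested on simulated data. Plots used matplotlib 3.10.9 (Python 3.11.15).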

Additional observations from a re-analysis of the deposited data

Results flagged for a closer look

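The change of 3 of the 4 tested genes differed between the lines by the edgeR interaction test. That test shares its libraries with the 48 h comparisons by which the genes were chosen. By the same adjusted p, the difference was positive for 25.7% of all genes tested and negative for 22.4%. The EW8 change minus the TC71 change was 0.71 on the log2 scale for SPRY2 (adjusted p = 7.81e-05), 0.32 for SPRED1 (adjusted p = 0.000581) and 0.20 for SPRED2 (adjusted p = 0.0205). The SPRED2 difference missed an adjusted p of 0.05 when any 1 of 7 libraries was left out. The RRM1 row also changed more in EW8, by 2.23 (adjusted p = 3.06e-18). Its part in these differences was not tested.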

How the results depend on the processing

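The 16 fitted values of the 4 tested genes (4 contrasts each) kept their direction in all 324 recomputations and their side of an adjusted p of 0.05 in 315. The exceptions were the SPRED2 difference, the SPRY4 difference and the SPRY2 level at 0 h, each when 1 library was left out. Scaling by total counts alone moved the median of all genes by 0.126 in EW8 and by -0.134 for EW8 against TC71 at 0 h. The number of genes called in TC71 (2) was 1 with upper-quartile factors, 1 with at least 10 counts in every library, which removes SPRY4, 1 with the fold threshold inside the test and 4 with no fold threshold, and it ranged from 1 to 2 when each library was left out. The number called for the difference between lines (0) was 1 with no filter on low counts, where SPRED3 entered, and 3 with no fold threshold. The number called at 0 h (3) was 1 with total counts alone, 1 with the fold threshold inside the test, 2 with upper-quartile factors, 2 with at least 10 counts in every library and 4 with no fold threshold. The pathway genes called (25 in EW8 and 9 in TC71) were 14 and 3 with at least 10 counts in every library, 76 and 48 with no fold threshold, and in TC71 5 with the fold threshold inside the test. The count in EW8 (3) stayed between 2 and 4 throughout. With the replicate number as a block, 3 genes were called in EW8, 2 in TC71, 0 for the difference and 3 at 0 h, and 25 and 8 pathway genes. The numbers do not pair the samples. For SPRED3 and for SPRY4 in TC71 at 0 h, depth limits what can be seen.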
